A study of Mus musculus with 8 samples.

Results

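The nuclear-encoded subunits of the mitochondrial respiratory chain were measured in whole lung by 123 probes for 84 genes, out of 40052 probes for 20920 gene symbols in the annotated matrix. Members were taken by gene symbol: those that begin with Nduf and one of the letters a, b, c, s or v, the succinate dehydrogenase genes Sdha, Sdhb, Sdhc and Sdhd, those that begin with Uqcr or Atp5, and those that begin with Cox4, Cox5, Cox6, Cox7 or Cox8. They were grouped into complex I (34 genes), complex II (4 genes), complex III (7 genes), complex IV (10 genes), the tissue-restricted isoforms of complex IV (7 genes), complex V (14 genes) and 8 assembly factors and other genes with such symbols. The latter were the NADH dehydrogenase assembly factors Ndufaf1, Ndufaf2, Ndufaf3 and Ndufaf4, together with Cox7a2l, Atp5s, Atp5sl and Cox4nb, of which the last is now called Emc8 and is no subunit of the chain.

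The study compared 4 wild-type mice with 4 Scgb3a2-transgenic mice, all male, on the C57BL/6 strain, 8 to 10 weeks old and without any treatment. The transgene carried the coding sequence of mouse Scgb3a2, a small secreted protein of the airways, under the human SP-C promoter, which is active in alveolar type II cells, and the transgenic line descended from 1 founder. Whole-lung RNA of each mouse was labelled with Cy5 and hybridised on a 2-colour Agilent Whole Mouse Genome array against a Cy3-labelled reference pool of lung RNA, made per the methods from equal amounts of each sample. Every value below is a log2 ratio of Cy5 sample over Cy3 pool unless it is called a log2 fold change, which is the transgenic mean minus the wild-type mean.

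The respiratory chain lies in the inner mitochondrial membrane. Complex I (NADH dehydrogenase) and complex II (succinate dehydrogenase) pass electrons to ubiquinone, complex III (the cytochrome bc1 complex) passes them to cytochrome c, and complex IV (cytochrome c oxidase) passes them to oxygen. Protons pumped by complexes I, III and IV drive complex V, the ATP synthase. A few subunits of complex IV exist as isoforms from separate genes. Cox6a2, Cox7a1 and Cox8b are known from heart, skeletal muscle and brown fat, Cox4i2 is known from lung and from vascular cells, and Cox6b2, Cox7b2 and Cox8c are known from testis, while Cox6a1, Cox7a2, Cox8a, Cox4i1, Cox6b1 and Cox7b are the widely expressed partners.

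The promoters of both muscle-type isoforms for which the RefSeq table of GRCm38.p6 held a window are printed here beside that of Cox6a1, a widely expressed partner chosen because its window held motifs. All 84 genes were matched to RefSeq by transcript accession and 71 of them had a window, of which the 250 bases before the annotated start were searched on both strands. Capitals mark matches to the core of the NRF1 site (GCGCA, any base, GCGC), to CCGGAAG (an ETS site of the kind that GABP binds), to TATAAA and to CAGCTG (an E-box), and none of these motifs overlapped another in the 3 windows. Cox7a1 (chr7:30183921-30184170, plus strand), Cox8b (chr7:140900447-140900696, minus strand) and Cox6a1 (chr5:115348959-115349208, minus strand) read 5′ to 3′ as follows.
Cox7a1: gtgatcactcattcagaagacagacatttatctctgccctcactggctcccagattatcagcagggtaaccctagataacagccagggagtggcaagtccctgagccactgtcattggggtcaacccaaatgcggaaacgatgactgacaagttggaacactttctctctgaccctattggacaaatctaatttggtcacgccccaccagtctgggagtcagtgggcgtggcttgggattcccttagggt
Cox8b: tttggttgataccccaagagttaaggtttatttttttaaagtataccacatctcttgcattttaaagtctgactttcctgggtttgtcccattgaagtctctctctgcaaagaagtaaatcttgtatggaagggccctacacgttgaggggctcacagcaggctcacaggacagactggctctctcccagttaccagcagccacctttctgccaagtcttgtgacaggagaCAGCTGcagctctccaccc
Cox6a1: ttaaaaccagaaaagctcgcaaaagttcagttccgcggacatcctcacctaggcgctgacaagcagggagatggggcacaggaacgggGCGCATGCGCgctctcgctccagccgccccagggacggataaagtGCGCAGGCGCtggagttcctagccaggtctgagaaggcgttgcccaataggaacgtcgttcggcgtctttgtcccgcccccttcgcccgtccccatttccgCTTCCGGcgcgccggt
The window of Cox6a1 held 2 matches to the NRF1 core, beginning 162 and 117 bases before the start, and 1 ETS match that began 16 bases before it. The window of Cox8b held 1 E-box, 19 bases before the start, and that of Cox7a1 held no match to any of the 4 motifs. Among the 60 core subunits with a window, 12 (20%) held the NRF1 core, against 3.86% of 27025 genes in the table, and 10 (16.7%) held the ETS motif, against 7.05%. TATAAA was in 5 of these 60 windows (8.33%, against 13%) and CAGCTG also in 5 (8.33%, against 12.8%). Of the tissue isoforms 4 had a window, and none of these held the NRF1 core or the ETS motif. The windows of the widely expressed Cox7a2, Cox8a and Cox7b likewise held neither, while that of Cox6b1 held 1 ETS match. Lack of these motifs thus does not set the isoforms apart, and 4 windows are too few to compare with the shares above. These are letter matches and not measured binding.

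To enter the tests, a probe needed a Cy5 signal well above background on 4 or more of the 8 arrays and 2 or more unflagged values per genotype, which 32645 of 41174 probes had. Among the members 116 of 123 probes and 81 of 84 genes were tested. Cox7b2 and Cox8c were well above background on none of the 8 arrays, and their ratios are not given. The probe of Cox7a2l was well above background on all 8 arrays but was flagged on 3 wild-type arrays, and the same befell the brighter of 2 probes for Cox7a2, which is therefore given by its other probe. Ndufaf4, Ndufs5 and Uqcrq each had 1 probe that was well above background on no array and are given by another. Between 32257 and 34709 probes were well above background per array, and 1.72% to 6.46% of spots were flagged. Scgb3a2, the gene of the transgene, was compared first. It read 0.01, -0.39, 0.58 and -0.56 in wild-type and 1.26, 0.47, 0.70 and 0.74 in transgenic lungs. Wild-type replicate 3 was above the lowest transgenic mouse and the other 3 wild-type mice were below all transgenic ones, with a log2 fold change of 0.88 (SE 0.24, limma adjusted p = 1, exact permutation p = 0.0571). The smallest p that the exact permutation of 4 against 4 mice allows is 0.0286. All 14 lung epithelial and endothelial markers measured, among them the surfactant genes Sftpc and Sftpb, were well above background on all 8 arrays. Of these 14, 11 were lower and 3 higher in the transgenic mean (median log2 fold change -0.18). The surfactant proteins Sftpa1 and Sftpd, 2 of the 14, had an unadjusted limma p under 0.05, where 2.09% of all probes tested did.

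The first comparison asked whether transcripts of the respiratory chain differed between Scgb3a2-transgenic and wild-type lungs. None of the 81 genes had an unadjusted p under 0.05 by limma, where 2.09% of all probes tested (682 of 32645) did. None had an adjusted p under 0.05 (0% of all probes), and the adjusted p was 1 for every one of the 81. At the level of probes the count was likewise 0 of 116, and with slide or scan day as a block 0 of the 81 genes had an unadjusted p under 0.05. The methods' t-test gave an unadjusted p under 0.05 for 2 of the 81 genes, Atp5k and Atp5sl, beside 2.65% of all probes. The log2 fold changes of the 81 genes ran from -0.32 to 0.17 with a median of 0.03, beside a median of 0.00 over all probes tested, and their standard errors ran from 0.09 to 0.18. In 80 of the 81 genes the 95% confidence interval lay inside a 1.5-fold change in either direction, the exception being Cox6a2. Over all probes tested this was so for 29776 of 32645. In bulk lung RNA, a change in RNA per cell cannot be told apart from a change in the number of cells of a type.

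**Figure D1:**
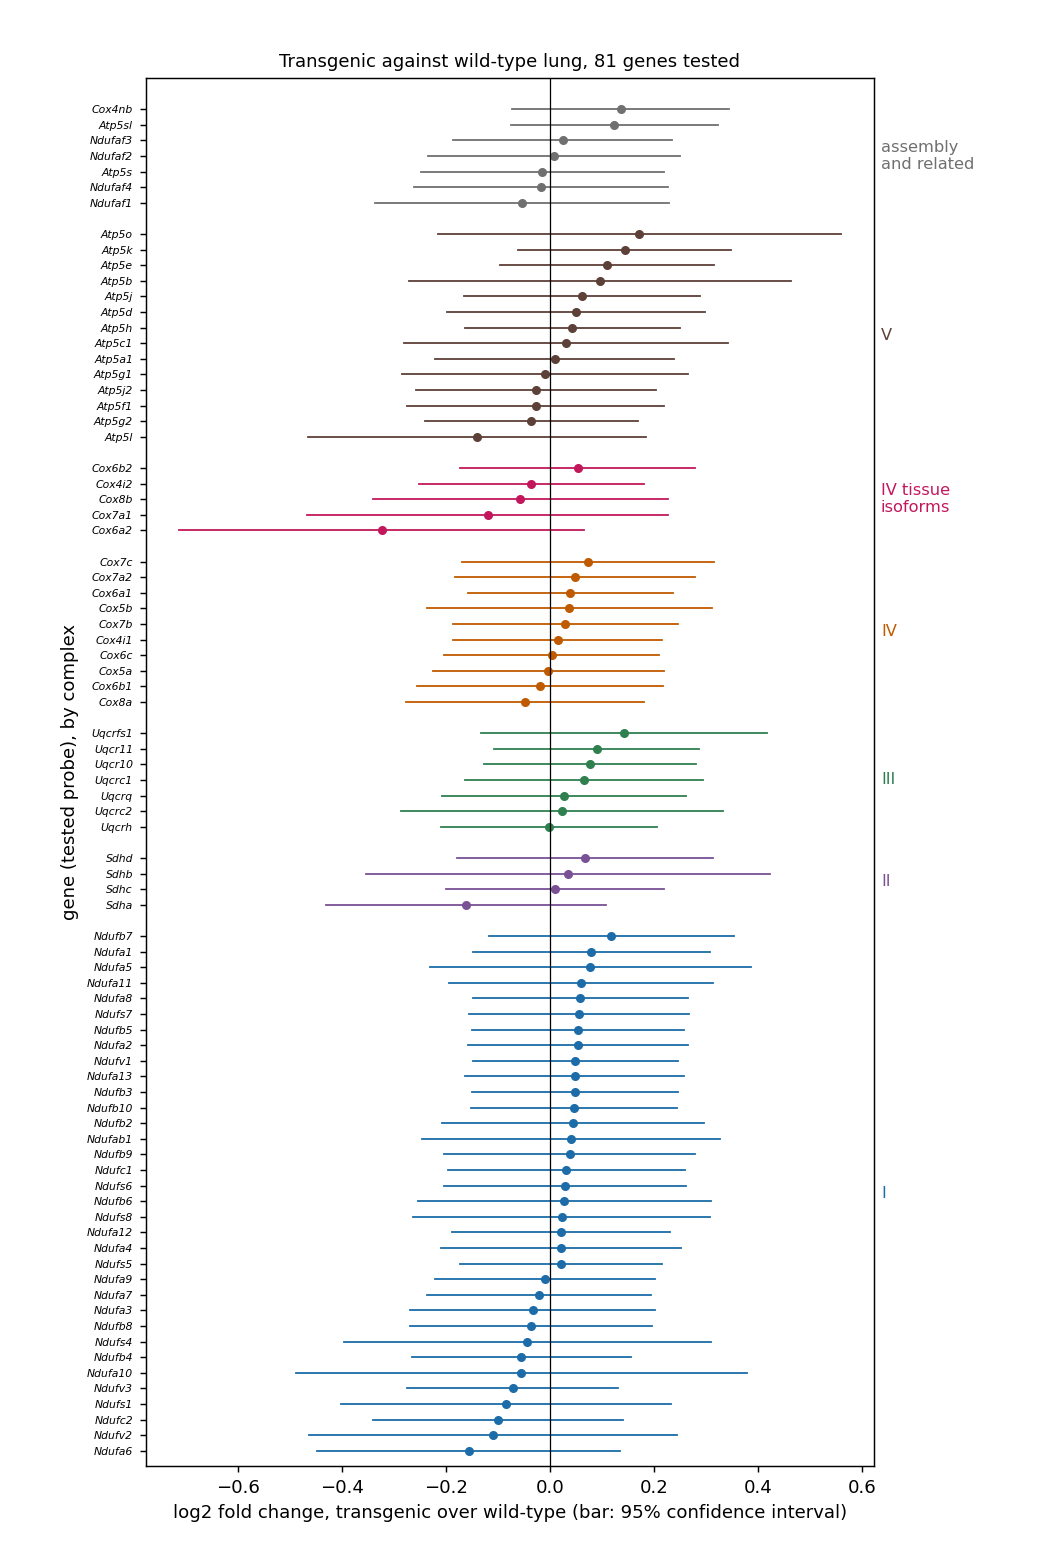
Log2 fold change of transgenic over wild-type lungs (x axis) for each of the 81 respiratory chain genes tested (y axis), grouped and coloured by complex. Points are the limma estimates from 4 against 4 mice and bars their 95% confidence intervals. Every interval includes 0, and that of Cox6a2, from -0.71 to 0.07, is the one that reaches beyond a 1.5-fold change.

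In complex I, 22 genes were higher and 12 lower in the transgenic mean, and the median log2 fold change was 0.03. Its extremes were Ndufb7, a small accessory subunit of the membrane arm, at 0.12 (SE 0.11), and Ndufa6, another accessory subunit, at -0.16 (SE 0.13). Ndufa6 had only 2 unflagged transgenic values, -0.10 and -0.04, against 0.18, 0.05, 0.18 and -0.06 in wild-type, and these ranges overlapped. Ndufa4, first described in complex I and now placed in complex IV, differed by 0.02 (SE 0.10). In complex II, the flavoprotein Sdha had the lowest value, -0.16 (SE 0.12), and the membrane anchor Sdhd the highest, 0.07 (SE 0.11, exact permutation p = 0.6). With all probes of Sdha averaged, its value was 0.02. Sdhd read -0.11, -0.13, 0.00 and 0.03 in wild-type and 0.23, -0.01, 0.05 and -0.20 in transgenic lungs, so that both extremes of the 8 mice were transgenic.

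In complex III, 6 genes were higher and 1 lower, and the median log2 fold change was 0.06. The Rieske iron-sulfur protein Uqcrfs1 stood highest at 0.14 (SE 0.13, exact permutation p = 0.286), and the hinge protein Uqcrh lowest at 0.00 (SE 0.09). Uqcrfs1 read -0.28, -0.26, -0.40 and -0.16 in wild-type and -0.19, 0.05, 0.05 and -0.44 in transgenic lungs. Both the lowest and the 2 highest of these values were transgenic. In complex IV without its tissue isoforms, the median log2 fold change was 0.02, from -0.05 for Cox8a to 0.07 for Cox7c, both small subunits of the oxidase. Cox7c read -0.16, -0.09, -0.03 and -0.03 in wild-type and -0.12, 0.10, 0.20 and -0.18 in transgenic lungs (exact permutation p = 0.457), again with transgenic mice at both ends. In complex V the median was 0.04. Atp5o, the oligomycin sensitivity conferring protein of the stalk, had the highest value, 0.17 (SE 0.18, exact permutation p = 0.686), and Atp5l, the g subunit of the membrane part, the lowest, -0.14 (SE 0.14). The value of Atp5o rested on wild-type replicate 4, which read -0.91 beside -0.11, -0.05 and -0.12 in the other wild-type mice, and without that mouse the log2 fold change was -0.03.

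Among the 59 member genes with 8 values, the wild-type and transgenic ranges did not overlap for 2, Atp5k and Atp5sl, where 1.46% of all probes with 8 values did not overlap. Atp5k, the e subunit of ATP synthase, read -0.16, -0.22, -0.20 and -0.21 in wild-type and 0.07, -0.14, -0.02 and -0.13 in transgenic lungs, which gave a log2 fold change of 0.14 (SE 0.09). Atp5sl, now called Dmac2 and known as a factor in complex I assembly, read 0.03, 0.16, 0.00 and 0.14 against 0.16, 0.22, 0.24 and 0.20, which gave a log2 fold change of 0.12 (SE 0.09). The other probe of Atp5sl overlapped, with 0.09, 0.08, -0.25 and 0.10 in wild-type against 0.20, 0.14, -0.01 and 0.10 in transgenic lungs. By the brighter probe of Atp5sl and the probe of Atp5k the transgenic mice were the higher ones, and the exact permutation p was 0.0286, the smallest possible, before any adjustment for the 59 genes. Cox4nb, the gene with the highest log2 fold change in its group at 0.14 (SE 0.10, exact permutation p = 0.114), did not pass the threshold, nor was the lowest, the assembly factor Ndufaf1, at -0.05 (SE 0.13).

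Averaged over the genes of a complex with 8 values, the difference between the genotypes was smaller than the SD between mice of the same genotype in complexes I, II, IV and V, in the assembly genes and in the tissue isoforms. The mean of complex I (23 genes) was -0.09 ± 0.07 (SD, n = 4) in wild-type and -0.07 ± 0.07 in transgenic lungs. The mean of complex IV (9 genes) was -0.10 ± 0.05 and -0.09 ± 0.10, and that of complex V (8 genes) was -0.14 ± 0.07 and -0.09 ± 0.06. These 3 complexes thus differed by 0.01, 0.02 and 0.05. For complex II (2 genes) the means were -0.06 ± 0.08 and -0.02 ± 0.07. For complex III (6 genes) they were -0.04 ± 0.04 and 0.03 ± 0.09, a difference of 0.07, and transgenic replicate 4, at -0.11, lay apart from 0.06, 0.07 and 0.09 in the other transgenic mice. The sign of these small differences was not stable. With median centring in place of loess and with the Cy5 channel alone, the differences of all 5 complexes were negative, from -0.11 for complex I with the Cy5 channel alone to 0.00 for complex III with median centring, which also moved the median over all probes from 0.00 to -0.05. The difference of the isoforms was negative in both, at -0.18 and -0.17.

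**Figure D2:**
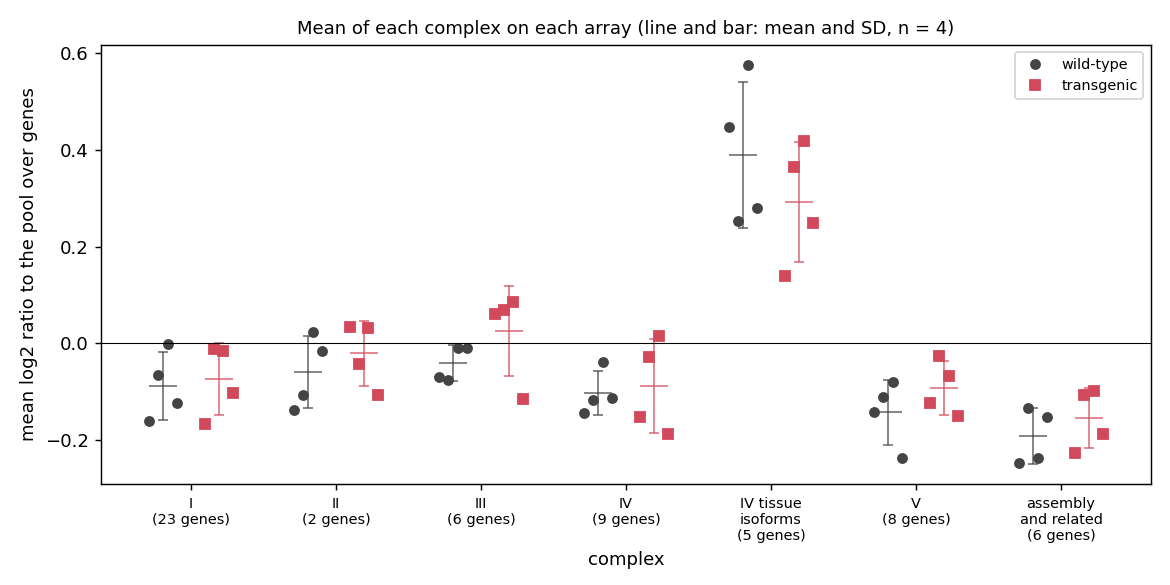
Mean log2 ratio to the pool (y axis) over the genes of each complex with 8 values (x axis, number of genes in brackets), 1 point per mouse. Circles are wild-type and squares transgenic mice, with lines and bars for the mean and SD of 4 mice. The genotypes overlap in every complex, and the tissue isoforms of complex IV stand above the pool on all 8 arrays, from 0.14 to 0.58.

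Cox6a2 and Cox7a1 were among the members that varied most from mouse to mouse. Cox6a2 had the highest SD within genotypes of all 81 genes (0.302) and Cox7a1 the fourth highest (0.258). The median was 0.0961 for the member genes and 0.179 for all probes tested. It was 0.168 for probes between the 5th and 95th percentiles of the members' brightness. Cox6a2, the muscle form of subunit VIa, read 0.93, 0.63, 1.26 and 0.63 in wild-type and 0.15, 0.84, 0.71 and 0.46 in transgenic lungs. The wild-type mice held the 2 highest and the transgenic mice the 2 lowest values, with the ranges overlapping. The log2 fold change was -0.32 (SE 0.18, limma adjusted p = 1, exact permutation p = 0.2). Without transgenic replicate 2 the value was -0.42, with an unadjusted limma p under 0.05, without wild-type replicate 3 or transgenic replicate 1 it was -0.19, and with array weights it was -0.11. Within the slides, each of which held 1 mouse of either genotype, the transgenic mouse was lower on slides 1 and 2, by -0.80 and -0.78, and higher on slides 3 and 4, by 0.20 and 0.08. The former pair of slides was scanned on 1 day and the latter pair on another, which gave differences of -0.79 and 0.14 within the days. Whether the scan day had a part in this was not tested.

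Cox7a1, the muscle form of subunit VIIa, read 0.50, 0.23, 0.40 and 0.10 in wild-type and -0.18, 0.41, 0.49 and 0.04 in transgenic lungs, and the log2 fold change was -0.12 (SE 0.16, exact permutation p = 0.514). Without transgenic replicate 1, the lowest of the 8, it was 0.00, and with array weights 0.07. Cox8b, the muscle form of subunit VIII, read 0.69, 0.56, 1.09 and 0.61 in wild-type and 0.62, 0.63, 0.84 and 0.63 in transgenic lungs, and the log2 fold change was -0.06 (SE 0.13, exact permutation p = 0.83). All 8 mice were above the pool, with wild-type replicate 3 and transgenic replicate 3 highest. Cox4i2 read 0.41, 0.22, 0.24 and 0.30 against 0.15, 0.19, 0.30 and 0.38, with a log2 fold change of -0.04 (SE 0.10), and Cox6b2 read -0.29, -0.38, -0.11 and -0.25 against -0.04, -0.25, -0.25 and -0.28, with a log2 fold change of 0.05 (SE 0.10). The genotypes overlapped for both. Cox6a1, Cox7a2, Cox8a and Cox4i1 each had a narrower range than their isoforms, while Cox6b1, from -0.56 to -0.18, had a wider one than Cox6b2. Cox6a1 lay between -0.02 and 0.16 over the 8 mice, Cox7a2 between -0.02 and 0.31, Cox8a between -0.08 and 0.22, Cox4i1 between -0.03 and 0.15, and Cox7b between -0.53 and -0.23. Their log2 fold changes were 0.04 for Cox6a1, 0.05 for Cox7a2, -0.05 for Cox8a and 0.01 for Cox4i1, each with an SE of 0.09 to 0.10, and median centring turned those of Cox6a1, Cox7a2 and Cox4i1, like that of Cox6b2, negative.

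**Figure D3:**
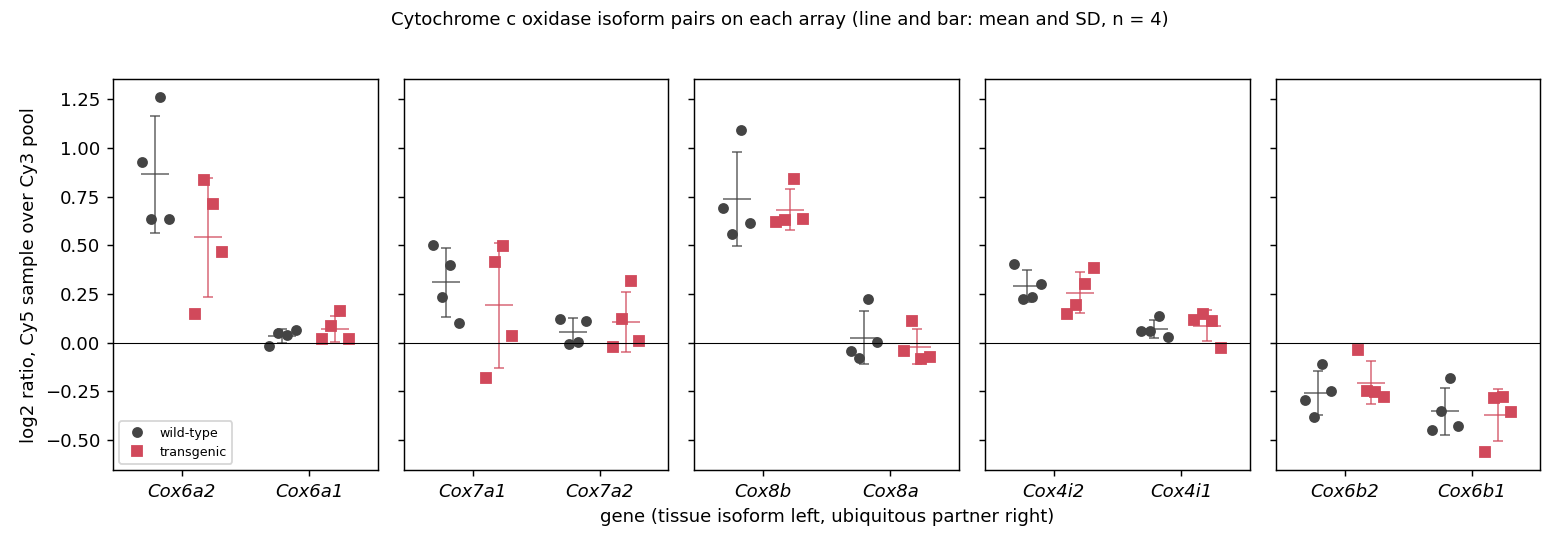
Log2 ratio to the pool (y axis) of 5 tissue isoforms of cytochrome c oxidase, each beside its widely expressed partner (x axis), 1 point per mouse. Circles are wild-type and squares transgenic mice, with lines and bars for the mean and SD of 4 mice. Cox6a2 ranges from 0.15 to 1.26 over the 8 mice, while its partner Cox6a1 stays between -0.02 and 0.16.

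Heart muscle, skeletal muscle, fat and vascular cells can all lie in or beside a whole lung, so the isoforms were set beside marker genes of these tissues. The cardiac muscle list was well above background on all 8 arrays for 13 of 13 genes measured. Its mean over 10 genes with 8 values was 0.43, 0.26, 0.67 and 0.17 in wild-type and -0.33, 0.34, 0.39 and 0.00 in transgenic lungs, lowest in transgenic replicates 1 and 4. Of its 13 genes 10 were lower in the transgenic mean, and the median log2 fold change was -0.33. Myh6 and Myl4, myosin chains of heart muscle, had unadjusted limma p under 0.05, where 2.09% of all probes tested did. The log2 fold changes of Myh6 and Myl4 were -0.62 (SE 0.21) and -0.54 (SE 0.22). Cox6a2 followed this mean over the 8 mice, with Pearson's r = 0.970 (exact permutation p = 0.000298, adjusted over 16 relations 0.00476) and Spearman's rho = 0.952 (exact permutation p = 0.00114, adjusted 0.0183). Cox7a1 did so with r = 0.903 (exact permutation p = 0.00149, adjusted 0.0119) and rho = 0.857 (exact permutation p = 0.0107, adjusted 0.0857). Without the 2 mice farthest from the median of the cardiac mean, r was 0.903 for Cox6a2 (exact permutation p = 0.0139, n = 6) and 0.957 for Cox7a1 (exact permutation p = 0.00139, n = 6). With the pericyte and vascular smooth muscle mean, trimmed in the same way, r was -0.918 for Cox6a2 (exact permutation p = 0.0153, n = 6) and -0.848 for Cox7a1 (exact permutation p = 0.0347, n = 6). Over all 8 mice r was -0.682 and -0.514 (exact permutation, adjusted p = 0.330 and 0.484), and rho was -0.619 and -0.333. The p-values of the trimmed relations are not adjusted over the 16 relations.

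The other 14 relations, of Cox6a2, Cox7a1, Cox8b and Cox4i2 with the means of cardiac muscle, skeletal muscle, brown adipocyte and pericyte and vascular smooth muscle genes, did not pass. The highest of the rest in size was that of Cox6a2 with the pericyte and vascular smooth muscle list, r = -0.682 (exact permutation p = 0.0619, adjusted 0.330). Cox8b had r = 0.655 with the cardiac mean (exact permutation p = 0.0959, adjusted 0.359), and Cox4i2 had r = 0.240 (exact permutation p = 0.574, adjusted 0.701). Cox6a2 had r = -0.400 with the brown adipocyte mean over all 8 mice. Without wild-type replicate 1 this relation passed by r, at -0.824 (exact permutation, adjusted p = 0.0466), but not by rho (exact permutation, adjusted p = 0.256). Each scan day and each genotype held 4 mice, too few for a correlation of its own. With the means of the scan days removed, r of Cox6a2 and of Cox7a1 with the cardiac mean was 0.984 and 0.903 (exact permutation within days, p = 0.0139 and 0.0208, both adjusted 0.167). With the genotype means removed, a choice made after seeing the data, r was 0.960 and 0.926 (exact permutation within genotypes, p = 0.00694 and 0.0104, both adjusted 0.0833). None of the 16 relations passed the adjusted threshold in either of these. The relation of Cox7a1 lost its adjusted call without transgenic replicate 1 (r = 0.796, exact permutation, adjusted p = 0.127), without transgenic replicate 4 (r = 0.891, exact permutation, adjusted p = 0.0683) and, narrowly, with median centring (r = 0.920, exact permutation, adjusted p = 0.0502).

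**Figure D4:**
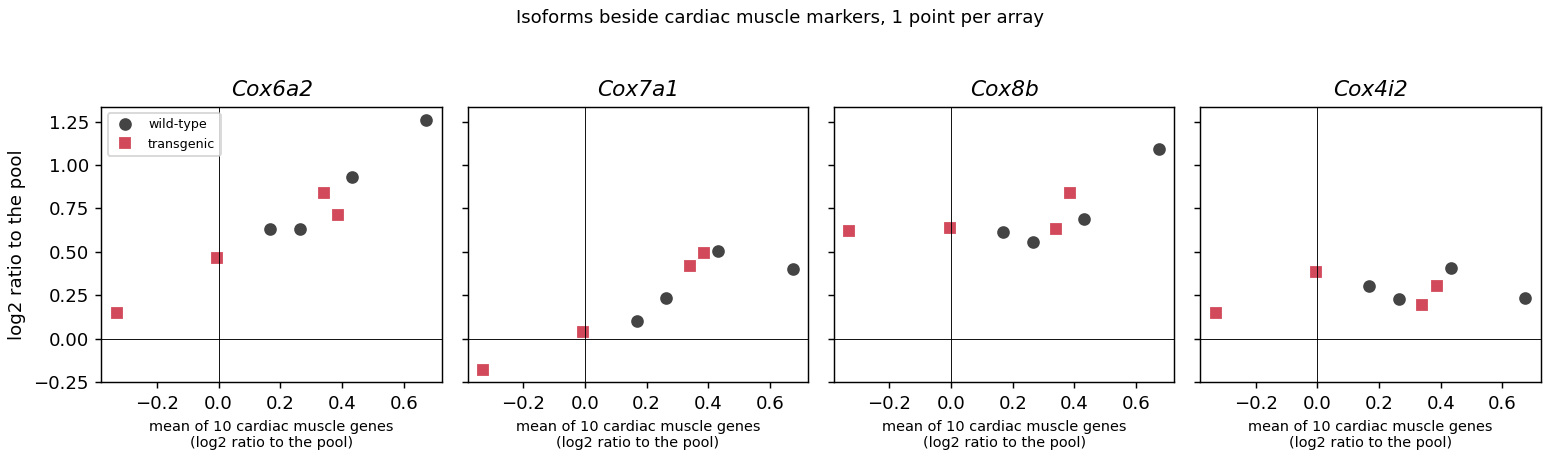
Log2 ratio to the pool of Cox6a2, Cox7a1, Cox8b and Cox4i2 (y axes) against the mean log2 ratio of 10 cardiac muscle genes (x axes), 1 point per mouse (circles wild-type, squares transgenic). Cox6a2 (r = 0.970) and Cox7a1 (r = 0.903) rise with the cardiac mean, while transgenic replicate 1 has the lowest cardiac mean, -0.33, and the lowest Cox6a2, 0.15.

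The markers of the other tissues were counted in the same way. For brown fat, 7 of 10 markers were well above background on all 8 arrays, among them Ucp1, the uncoupling protein that defines the tissue, while Otop1 and Zic1 were well above background on none. The mean of 6 such genes lay between 0.01 and 0.21 over the 8 mice, and of 7 tested genes 3 were higher and 4 lower in the transgenic mean (median -0.02), 0 of them with an unadjusted limma p under 0.05. Ucp1, the highest of these, differed by 0.15 (SE 0.10, exact permutation p = 0.143). For skeletal muscle, 11 of 14 markers were well above background on all arrays and Pvalb on none. The mean of 11 genes lay between -0.13 and 0.17, and of 12 tested genes 4 were higher and 8 lower (median -0.07), with Ckm, muscle creatine kinase, lower by -0.44 in the transgenic mean (SE 0.15, exact permutation p = 0.0286). The general adipocyte list, with 9 of 9 tested genes lower in the transgenic mean and a median of -0.30, held 3 genes with an unadjusted limma p under 0.05, of which Adipoq, the fat hormone adiponectin, differed by -0.89 (SE 0.25, exact permutation p = 0.0571). Of 14 pericyte and vascular smooth muscle genes 9 were higher and 5 lower (median 0.09), with Gucy1b3, a subunit of the nitric oxide receptor, at 0.27 (SE 0.10, exact permutation p = 0.0286). None of these markers had an adjusted p under 0.05. Of all probes tested, 2.09% had an unadjusted limma p under 0.05, and 16199 of 32645 were lower in the transgenic mean. The genes of a list were measured in the same mice, so such counts are not independent. The part of these tissues in the levels of Cox6a2, Cox7a1 and Cox8b was not tested.

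The second comparison set the mean of all 8 arrays against the reference pool. No dyes were swapped, so a difference from the pool and a dye bias of the probe cannot be told apart. A pool made in equal amounts from these 8 samples, as the methods describe, would hold about their mean for every gene. Whether this pool did was not tested. The values below are ratios to the pool as measured and not levels of expression in lung. Of the 81 genes 9 (11.1%) lay above the pool with an adjusted p under 0.05 by limma, where 29.5% of all probes tested did, and 31 (38.3%) lay below it, where 28% of all probes did. Among named genes given by 1 probe each the shares were 32% above and 27.1% below. For probes between the 5th and 95th percentiles of the members' brightness, not matched within that span, they were 29.3% above and 33% below. The latter share was nearer to that of the members. Counted by probe, 15.5% of the members lay above and 36.2% below. With median centring 2 of the 81 lay above and 47 below. Of the 9 genes above the pool, 4 were tissue isoforms of complex IV, which made up 5 of the 81 genes. Cox8b was at 0.71 (SE 0.06, limma adjusted p = 4.98e-06) and Cox6a2 at 0.70 (SE 0.09, limma adjusted p = 5.77e-05), the highest of all members given by 1 probe per gene. Cox4i2 followed at 0.27 (SE 0.05), a call lost with median centring (0.10), and Cox7a1 at 0.25 (SE 0.08), the latter with a limma adjusted p of 0.0179 that rose above 0.05 without wild-type replicate 1 (0.0515), transgenic replicate 2 (0.0557) or transgenic replicate 3 (0.0568). The fifth, Cox6b2, was below the pool at -0.23 (SE 0.05).

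The other 5 genes above the pool were Ndufs7, Ndufa2, Ndufb10 and Ndufs5 of complex I and Atp5sl, the last of which lost its call with its probes averaged (0.10). Ndufs7, an iron-sulfur subunit of the arm that feeds electrons to ubiquinone, was highest in its complex at 0.27 (SE 0.05), with the 8 mice between 0.18 and 0.40. Complex I held 12 genes below the pool, led by Ndufv2, an iron-sulfur subunit of the NADH-binding module. Ndufv2 read -0.77, -0.39, -0.42 and -0.48 in wild-type and -1.10, -0.42, -0.37 and -0.61 in transgenic lungs, a mean of -0.57 (SE 0.08). All 8 mice were below the pool, and transgenic replicate 1 was the lowest. The other probe of Ndufv2 read 0.01 (SE 0.07), and the average of both was -0.28. In complex II, Sdhb, the iron-sulfur subunit, was at -0.41 (SE 0.08) from 2 unflagged values per genotype, and Sdhd was at -0.02 (SE 0.06). In complex III, Uqcrfs1 (-0.20, SE 0.06) and the core protein Uqcrc2 (-0.19, SE 0.07) lay below and Uqcrh had the highest value, 0.09 (SE 0.05), with no gene above the threshold on the upper side. In complex IV, Cox7b (-0.41, SE 0.05), Cox6b1 (-0.36, SE 0.05), Cox5b (-0.25, SE 0.06) and Cox5a (-0.23, SE 0.05) lay below, and Cox7a2 was highest at 0.08 (SE 0.05). In complex V, 6 genes lay below by the brightest tested probe, from Atp5j2 at -0.38 (SE 0.05), the f subunit of the membrane part, and none above. The other probe of Atp5j2 read 0.44 and lay above the pool by the same threshold, and the average of both was 0.03. A second probe of Atp5a1 also lay above, at 0.17. By the brightest tested probe, the highest in complex V was Atp5d, the delta subunit, at 0.07 (SE 0.06). Among the assembly factors Ndufaf2 was lowest at -0.51 (SE 0.06).

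**Figure D5:**
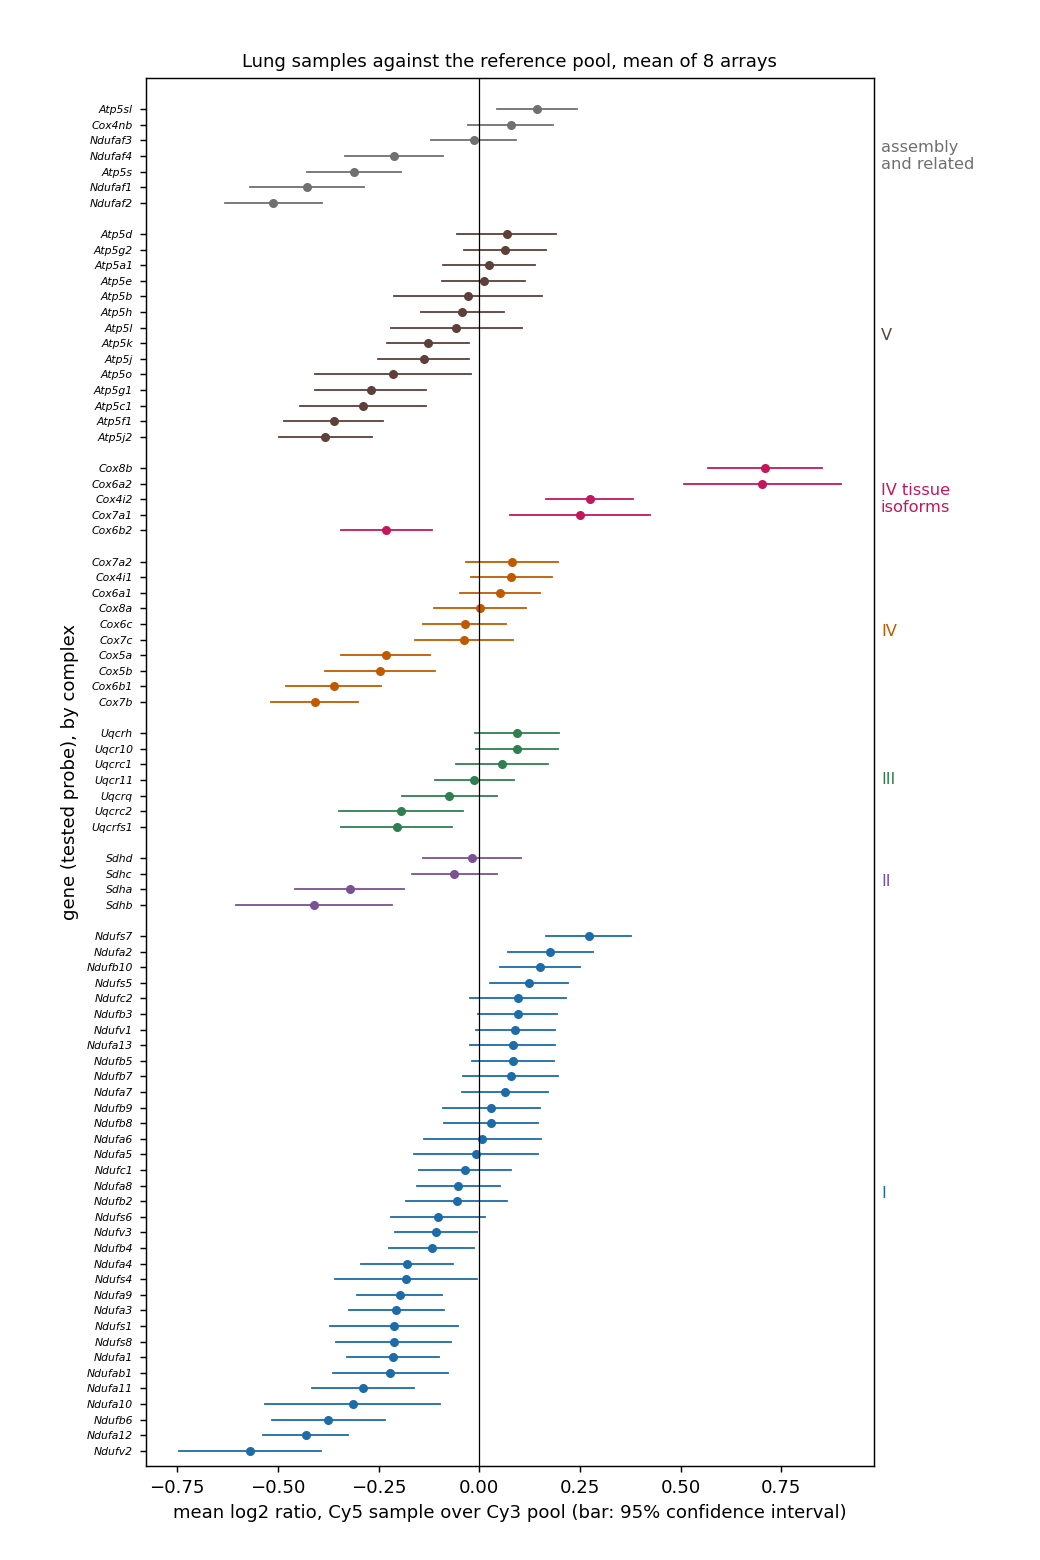
Mean log2 ratio of the 8 lung samples over the reference pool (x axis) for each of the 81 genes tested (y axis), grouped and coloured by complex. Points are limma estimates and bars their 95% confidence intervals. Cox8b (0.71) and Cox6a2 (0.70) stand apart to the right, and Ndufv2 (-0.57) is the lowest.

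Different probes of the same gene did not always give the same ratio to the pool. Of 27 genes with more than 1 tested probe, 14 had probes on both sides of the pool and 5, namely Ndufc1, Atp5j2, Sdha, Atp5s and Ndufa3, had probes with adjusted p under 0.05 on both sides. Ndufc1 was given at -0.03 by its brightest probe, at -0.22 by the next and at 1.08 by the dimmest, and Sdha at -0.32, 0.14 and 0.35 in the same order. In both genes the dimmest probe read highest. The spread between probes of a gene had a median of 0.21 for the ratio to the pool and of 0.05 for the log2 fold change between genotypes.

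Genes around the chain were examined from fixed lists. Of 9 measured assembly factors of NADH dehydrogenase, 4 of them members here, 5 were higher and 4 lower in the transgenic mean (median log2 fold change 0.00). Among 21 assembly factors of the other complexes, 13 were higher and 8 lower (median 0.05), with Cox15, an enzyme of heme A synthesis, at 0.19 (SE 0.12, exact permutation p = 0.143). Of 16 electron carrier genes 9 were higher and 7 lower (median 0.02), with Pdss2 of ubiquinone synthesis at 0.19 (SE 0.14, exact permutation p = 0.229). The 15 tested genes of the citric acid cycle and pyruvate dehydrogenase had a median of 0.01, and Pdhb, the beta subunit of pyruvate dehydrogenase, was at -0.20 (SE 0.12). No gene of these 4 lists had an unadjusted limma p under 0.05. Of 14 regulators of mitochondrial biogenesis 11 were lower and 3 higher (median -0.06), none with an unadjusted limma p under 0.05. Nrf1, whose binding core is marked in the promoter of Cox6a1, was at 0.18 (SE 0.17), and the mitochondrial transcription factor Tfb2m at -0.14 (SE 0.11, exact permutation p = 0.171). Of the subunits encoded by mitochondrial DNA, 4 were measured (ND4, CYTB, COX2 and ATP6). All 4 were higher in the transgenic mean, where the median log2 fold change was 0.11, the standard errors ran from 0.19 to 0.28 and none had an unadjusted limma p under 0.05. The highest was ATP6 at 0.18 (SE 0.23).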

How the data were processed

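The authors deposited, for each of the 8 arrays, Agilent Feature Extraction output with raw median and background signals (intensity), processed intensities and log10 ratios, and a matrix of log2 ratios with gene symbols that equals the processed ratios within 0.001 for probes with 1 spot. The header of the deposited output names Feature Extraction 10.10.1.1 and the submitters' processing notes 11.0.1.1. The methods name a Student's t-test and give no adjustment for multiple tests.

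Intensities were corrected with normexp (offset 50, fitted on unflagged spots), normalised by loess within arrays and averaged over the spots of a probe with limma (version 3.58.1) under R (version 4.3.3). Motifs and plots were made in Python (version 3.11.15). A gene was given by its brightest tested probe, chosen on the mean brightness of all 8 arrays, where the rule had named the brightest probe. Samples were grouped by the genotype in their titles, all 8 columns of the matrix were mapped and 0 were left out. Transgenic and wild-type mice, and the mean of 8 arrays and 0, were compared by limma with Benjamini-Hochberg adjustment over 32645 probes, and confidence intervals are at 95%. The labels number 4 replicates per genotype without litter or extraction batch, so p-values measure only the spread between these samples. The number of arrays limits the precision.

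Genes named were the tissue isoforms and partners, the extremes of each complex in either comparison, members with p under 0.05, and at most 2 genes per list with the lowest p. Genes named for probes that differ, or singled out in a count, were chosen after their values were seen. The members and lists were chosen with earlier results of these data known. The procedure was tested on simulated data. Alternatives were other background corrections and normalisations, the processed signals, the authors' matrix, Cy5 alone, other filters, array weights, an intensity trend, the methods' t-test, blocks for slide, scan day and replicate number, averaged probes and leaving out 1 mouse.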

Additional observations from a re-analysis of the deposited data

Results flagged for a closer look

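Among 68 sets of 4 values tested, 8 had a mouse whose gap to its nearest neighbour exceeded Dixon's 95% critical value as a share of the range. Chance gives about 1 in 20 for sets chosen without regard to their values. Every gene flagged here was a named gene, and several were named as extremes of their complex in these data. The 8 can therefore not be set against that share. Transgenic replicate 3 stood high for Cox8b at 0.84 beside 0.62 to 0.63. Transgenic replicate 1 stood high for Cox6b2 at -0.039 beside -0.28 to -0.25 and for Ndufb7 at 0.28 beside 0.08 to 0.10, and low for Ndufaf2 at -0.77 beside -0.46 to -0.40. Transgenic replicate 2 stood high for Atp5d at 0.27 beside 0.01 to 0.06. Wild-type replicate 3 stood high for Ndufa4 at -0.077 beside -0.24 to -0.22, and wild-type replicate 4 low for Atp5o at -0.91 beside -0.12 to -0.05. In the mean of complex III, transgenic replicate 4 stood low at -0.11 beside 0.06 to 0.09. Transgenic replicate 1 had 3 of these 8. Its correlations with the other arrays across the 59 member genes with 8 values ran from 0.702 to 0.830, where all pairs ran from 0.702 to 0.927.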

How the results depend on the processing

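The count of member genes with an adjusted p under 0.05 between the genotypes was 0 under each of the 23 alternatives run. With an unadjusted p under 0.05 it was 2 by the methods' t-test and 0 to 1 when 1 mouse was left out. The genotype difference of the complex means became -0.11 for complex I, -0.036 for complex III, -0.090 for complex IV and -0.089 for complex V with the sample channel alone, -0.035 for complex II, -0.014 for complex V and -0.043 for the assembly genes with median centring, and -0.035 for complex II in the authors' matrix. Leaving out 1 mouse gave complex II values from -0.040 to 0.067. Genes above the pool numbered 2 with median centring and 14 by the methods' t-test, and those below it 47 with median centring. Relations of isoforms and markers past the adjusted threshold numbered 1 with median centring, 13 with the sample channel alone, 0 with scan day as a block, 0 with genotype means removed (chosen after seeing the data) and 1 to 3 when 1 mouse was left out. The causes were not tested.

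The sign of the mean ratio to the pool turned with median centring for Atp5d (-0.13), Cox4i1 (-0.065), Cox6a1 (-0.067), Cox7a2 (-0.094), Cox8a (-0.17) and Uqcrh (-0.046). It turned with the processed signals and in the authors' matrix for Cox4i1 (-0.12 in both) and Sdhd (0.0075 in both), and with all probes averaged for Atp5j2 (0.029). With 1 mouse left out, Cox8a ranged from -0.031 to 0.020 and Sdhd from -0.054 to 0.019.

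Mice of the 2 genotypes with the same replicate number did not deviate together throughout (r = 0.32, 0.25, -0.08 and -0.21 for numbers 1 to 4), and the number was not taken as a pairing. The mice numbered 1 and those numbered 2 also shared a slide, and the 4 pairs on a common slide had r of 0.32 (slide 2), 0.25 (slide 3), 0.30 (slide 1) and 0.075 (slide 4). With the number as a replicate block, 0 member genes had an unadjusted p under 0.05, 8 lay above the pool and 28 below it. With 4 mice per genotype, standard errors near 0.1 on the log2 scale limit the differences that can be detected. Differences above 0.1 can be missed as well, as Atp5k at 0.14 (SE 0.09) had an unadjusted limma p of 0.151. Dim probes are limited by their signal over background.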
